A study of Homo sapiens with 8 samples.

Results

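The cadherins and regulators of the epithelial-mesenchymal transition (EMT) were examined as a set of 10 genes chosen by name, CDH1, CDH2, CDH3, VIM, SNAI1, SNAI2, ZEB1, ZEB2, TWIST1 and AXL, out of 25369 gene symbols in the table of expression values. RNA was sequenced from MCF10A cells, a non-transformed and spontaneously immortalized line of human mammary epithelial cells, 7 days after they were encapsulated in hydrogels of 4 kinds, each with 2 libraries. Soft and stiff IPNs are interpenetrating networks of reconstituted basement membrane (rBM) and alginate, and in the stiff IPNs the alginate was crosslinked with calcium. Soft col:rBM gels held rBM with a little collagen-1 (col-1), while stiff col gels were dense col-1 without rBM, so that stiff col differed from stiff IPN not only in col-1 but also in rBM, in alginate and in calcium. All cells were of this 1 line, untreated apart from the gel, and were used at passages 8 to 15. The comparisons ask how the members differ between the soft and the stiff gel of each system, and between gel systems. Stiffness was not the only difference within a system. Calcium differed between the IPNs, and col-1 and rBM differed between the collagen gels.

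Cadherins are calcium-dependent adhesion receptors that join neighbouring cells and are linked through catenins to the actin cytoskeleton. In EMT, epithelial cells lower E-cadherin and raise mesenchymal proteins such as vimentin, under transcription factors of the SNAIL, ZEB and TWIST families, several of which repress CDH1 by binding E-boxes. Mammary cells of basal type such as MCF10A are known to hold a mixed state, with P-cadherin and vimentin beside E-cadherin. The ZEB factors and the microRNAs of the miR-200 family repress each other.

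The miR-200 family is shown here because its target sites set ZEB1 and ZEB2 apart from the other members at the level of sequence. Its mature microRNAs fall into 2 groups by seed, the stretch from base 2 to base 8 that pairs with a target, printed in capitals (RefSeq, GRCh38.p14).
hsa-miR-141-3p: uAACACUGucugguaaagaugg
hsa-miR-200a-3p: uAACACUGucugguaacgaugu
hsa-miR-200b-3p: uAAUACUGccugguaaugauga
hsa-miR-200c-3p: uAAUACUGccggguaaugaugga
hsa-miR-429: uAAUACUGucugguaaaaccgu

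In 3′UTRs, the 7 letters CAGTGTT match the first seed and CAGTATT the second, and only the strand of the mRNA was searched. ZEB1 had 9 matches, 3 to the first and 6 to the second seed, in a 3′UTR of 2540 bases, and ZEB2 had 9, 4 and 5 of them, in 5370 bases. SNAI2 had 1 match and the 7 other members had 0. Of 19053 3′UTRs, 28.4% held a match to either seed. Among 3′UTRs within 25% of its length, 0 of 2937 others had as many as ZEB1, and 1 of 1475 others had as many as ZEB2. The sites below are from the hg19 genome, given 5′ to 3′ on the strand of the gene, with the seed match in capitals.
ZEB2, chr2:145146619-145146641, minus strand: cgcactaccatacatCAGTATTt
ZEB2, chr2:145146556-145146578, minus strand: cgcactacaatgcatCAGTATTa
ZEB2, chr2:145146277-145146299, minus strand: agtgccatccttgtaCAGTGTTa
ZEB1, chr10:31816546-31816568, plus strand: attgttttatcttatCAGTATTa
ZEB1, chr10:31817710-31817732, plus strand: tgagatttgatttaaCAGTGTTa

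A match of letters is a description and does not show that a site was used. Mature microRNAs are too short for these libraries, and only reads over the hairpin genes could be looked up. The interval of MIR141 (chr12:7073260-7073354, plus strand) had normalised read counts of 5 and 3 in soft IPN, 17 and 14 in stiff IPN, 4 and 4 in soft col:rBM and 8 and 6 in stiff col. It passed the filter on low values only through stiff IPN and was chosen after its values were seen, so that its height there supports nothing. MIR200C lay between 0 and 3, and MIR200A, MIR200B and MIR429 were listed at 0 in all 8 libraries.

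The normalised read count is the number of reads on a gene divided by 1 factor per library, which the authors applied before rounding. The libraries held 13065615 to 18583116 reads on genes, as estimated from the steps in these values. The paper reports a higher number of filtered reads, sequenced as paired ends, and the reason for the difference was not tested. A count of 3 reads, taken as the limit of detection, corresponds to 2.41 to 3.72 depending on the library. This limit covers counting error only. All 7 markers of basal mammary epithelium were present, and CDKN2A and CDKN2B, which are lost in MCF10A, were at 0 in every library. Luminal mammary markers were present too, with a sum of 7362 to 13445 and KRT18 the highest (4014 to 7326). Of these 7 luminal genes, 2 were below 10 in every library. Of markers of other cells, the leukocyte gene PTPRC and the fibroblast genes COL1A2 and THY1 were at 0 in every library. The summed level of 5 leukocyte markers was 518 to 1633 in stiff IPN and 1091 to 5169 in the other gels, mostly from CD68 (324 to 5017), a lysosomal gene. That of 5 endothelial markers was 42 to 115 in stiff IPN and 163 to 451 elsewhere, with TEK (3 to 235) the highest on average. That of 9 fibroblast markers was 1779 to 2015 in stiff IPN and 937 to 1740 elsewhere, with DCN (526 to 1217) the highest on average. Of these lists, 3 of 5, 2 of 5 and 6 of 9 genes were below 10 in every library. The endothelial sum was lowest and the fibroblast sum highest in stiff IPN, and their part in the results was not tested. In bulk RNA, fewer cells of a type and less RNA per cell cannot be told apart.

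All 10 members had reads in every library, but at very different levels. SNAI1 was below the limit of detection in soft col:rBM replicate 2, at 2 against 2.67. Per kilobase of the canonical transcript, the median normalised read count over the 8 libraries was 12457 for VIM, 1612 for CDH3, 990 for SNAI2, 483 for CDH1, 271 for AXL and 148 for TWIST1. It was 55.5 for ZEB2, 19.3 for CDH2, 17.2 for ZEB1 and 2.35 for SNAI1. The ranges over libraries were apart between VIM and CDH3, between TWIST1 and ZEB2 and between ZEB1 and SNAI1, and overlapped between every other pair of neighbours in this order. Dividing by the length of all annotated exons put ZEB1 above CDH2 and changed no other rank. The widest spread was that of VIM, whose highest library was 6.29 times its lowest, and the narrowest that of CDH3, at 1.65 times.

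CDH1 encodes E-cadherin, the cadherin of epithelial adherens junctions (hg19 chr16:68771195-68869440, plus strand, 16 exons). Its normalised read count was 2312 and 2724 in soft IPN, 3972 and 5620 in stiff IPN, 2339 and 2200 in soft col:rBM, and 1283 and 1823 in stiff col, giving the first and second replicate of each gel, which are taken here as trials 1 and 2. The study describes independent trials, but the labels number the replicates without naming a trial. Both stiff IPN libraries lay above the 6 others, and both stiff col libraries lay below them. CDH1 was the only member with both stiff IPN libraries on top, an arrangement found in 1057 genes (7.91% of the 13369 tested).

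CDH3, its neighbour on the same chromosome (hg19 chr16:68670092-68761371, plus strand), encodes P-cadherin of basal and myoepithelial cells. Its normalised read count was 7773 and 9567 in soft IPN, 6262 and 5814 in stiff IPN, 9385 and 7757 in soft col:rBM, and 6598 and 6125 in stiff col. The 4 libraries of the stiff gels were therefore all below the 4 of the soft gels. The share of all genes with this arrangement is not given here, so it only describes these values. In reads, CDH3 exceeded CDH1 in every library.

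CDH2 encodes N-cadherin, the cadherin of neural and mesenchymal cells that is raised in the cadherin switch of EMT. It was low, at 126 and 78 in soft IPN, 77 and 108 in stiff IPN, 72 and 53 in soft col:rBM, and 71 and 86 in stiff col. Both soft col:rBM libraries lay below those of the IPNs, and the other gels overlapped. The highest library of CDH2 was 2.38 times its lowest, and its reads were fewer than those of CDH1 in all 8 libraries.

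VIM encodes vimentin, the intermediate filament of mesenchymal cells (hg19 chr10:17270240-17279592, plus strand). Its normalised read count was 61638 and 30868 in soft IPN, 22798 and 9804 in stiff IPN, 58049 and 18444 in soft col:rBM, and 46195 and 18460 in stiff col. The second replicate was lower in every gel. Within each replicate number stiff IPN was the lowest gel, although the first stiff IPN replicate lay above the second replicates of both collagen gels. Reads of the antisense gene VIM-AS1 cannot be told apart from those of VIM where they overlap, as the library kit does not mark strand, and likewise for ZEB1-AS1 and ZEB2-AS1. VIM-AS1 had 27 to 73 normalised reads.

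Of the transcription factors, SNAI1 (SNAIL), a direct repressor of CDH1, was at the limit of detection, with normalised read counts of 3 and 6 in soft IPN, 3 and 5 in stiff IPN, 7 and 2 in soft col:rBM, and 8 and 3 in stiff col. SNAI1 was below the filter on low values, and differences between gels were not detectable at this depth. SNAI2 (SLUG), which is expressed in basal mammary cells, was far higher, at 2174 and 1659 in soft IPN, 1880 and 879 in stiff IPN, 2970 and 2144 in soft col:rBM, and 3276 and 2419 in stiff col. Both stiff col libraries of SNAI2 lay above both stiff IPN libraries.

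ZEB2, a zinc finger repressor of CDH1, was at 467 and 520 in soft IPN, 338 and 104 in stiff IPN, 594 and 576 in soft col:rBM, and 593 and 509 in stiff col (hg19 chr2:145121931-145278624, minus strand). It was the only member with both stiff IPN libraries below the 6 others, as in 1007 genes (7.53%). Its paralog ZEB1 was at 108 and 47 in soft IPN, 87 and 127 in stiff IPN, 138 and 89 in soft col:rBM, and 157 and 96 in stiff col, and the ranges of its gels all overlapped. The log2 ratio of ZEB2 to ZEB1 was 2.11 and 3.47 in soft IPN and 1.96 and -0.29 in stiff IPN, and the second stiff IPN replicate was the only library with more ZEB1 than ZEB2 reads.

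TWIST1, a basic helix-loop-helix factor, was at 675 and 156 in soft IPN, 301 and 150 in stiff IPN, 497 and 156 in soft col:rBM, and 503 and 181 in stiff col. Its 4 first replicates all lay above its 4 second replicates. AXL encodes a receptor tyrosine kinase of the TAM family that is often raised in mesenchymal tumour cells (hg19 chr19:41725128-41767671, plus strand). It was at 1445 and 1556 in soft IPN, 1031 and 393 in stiff IPN, 1652 and 1107 in soft col:rBM, and 1731 and 1022 in stiff col. The second stiff IPN replicate was the lowest library for CDH3, VIM, SNAI2, ZEB2, TWIST1 and AXL and the highest for CDH1. The share of all genes with an extreme in this library is not given here. This library also had the fewest estimated reads, 13065615, and the lowest sum of normalised read counts, 14306848. Their part in these values was not tested.

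**Figure D1:**
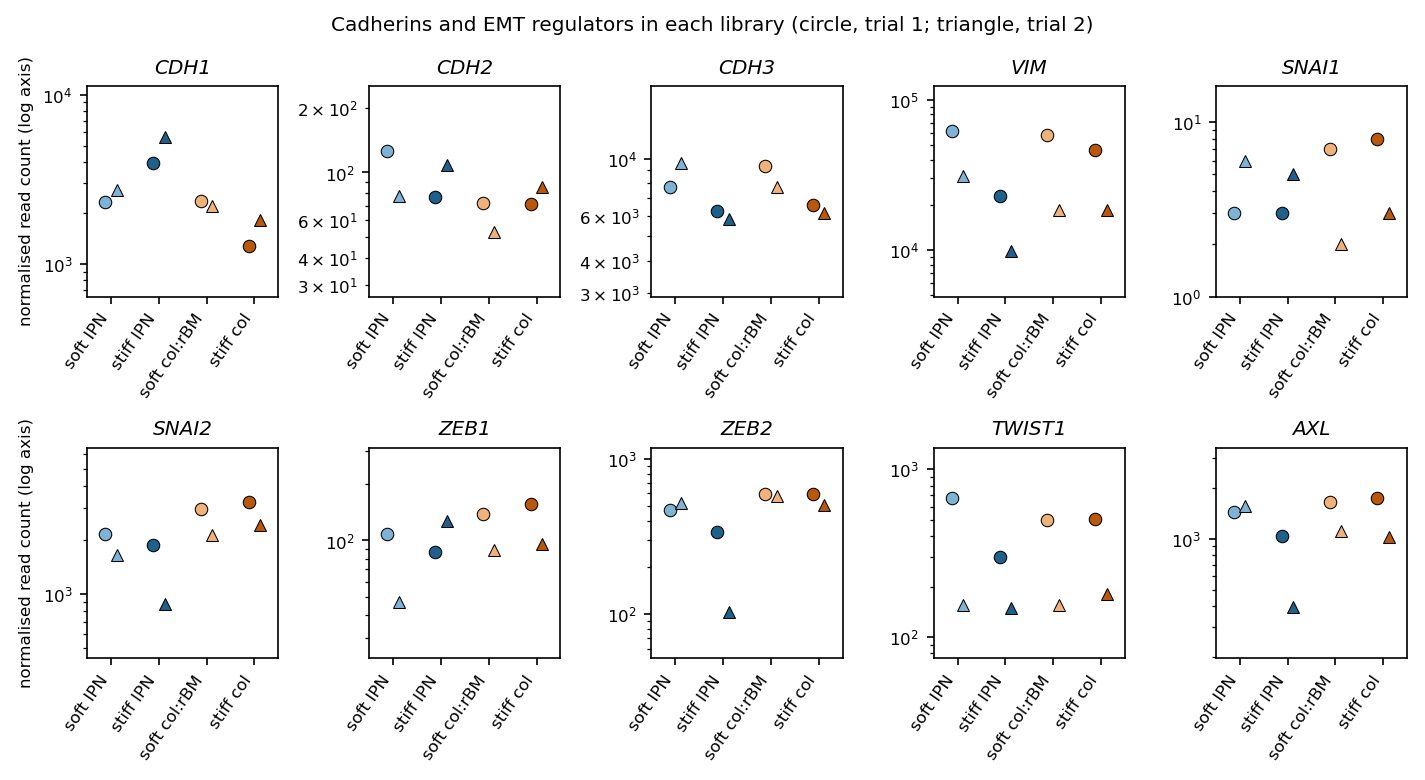
Normalised read count (log axis, scaled to each gene) of the 10 members in the 4 gels, with a circle for the first and a triangle for the second replicate of each gel. CDH1 is highest in stiff IPN, at 3972 and 5620, and ZEB2 is lowest there, at 338 and 104, while VIM and TWIST1 are lower in the second replicate of every gel.

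The contrast of E-cadherin with vimentin can be read within a library, where the scaling factor cancels. The log2 ratio of CDH1 to VIM reads was -4.74 and -3.50 in soft IPN, -2.52 and -0.80 in stiff IPN, -4.63 and -3.07 in soft col:rBM, and -5.17 and -3.34 in stiff col. Both stiff IPN libraries were above all others, and the mean was -1.66 in stiff IPN against -4.12 in soft IPN, -3.85 in soft col:rBM and -4.26 in stiff col. The log2 ratio of CDH1 to CDH3 was -1.75 and -1.81 in soft IPN, -0.66 and -0.05 in stiff IPN, -2.0 and -1.82 in soft col:rBM, and -2.36 and -1.75 in stiff col. E-cadherin reads thus came close to those of P-cadherin in the second stiff IPN replicate. The 2 libraries of a gel cannot give a p under 0.333 in an exact two-sided permutation test between 2 gels, so that none was made on the ratios.

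**Figure D2:**
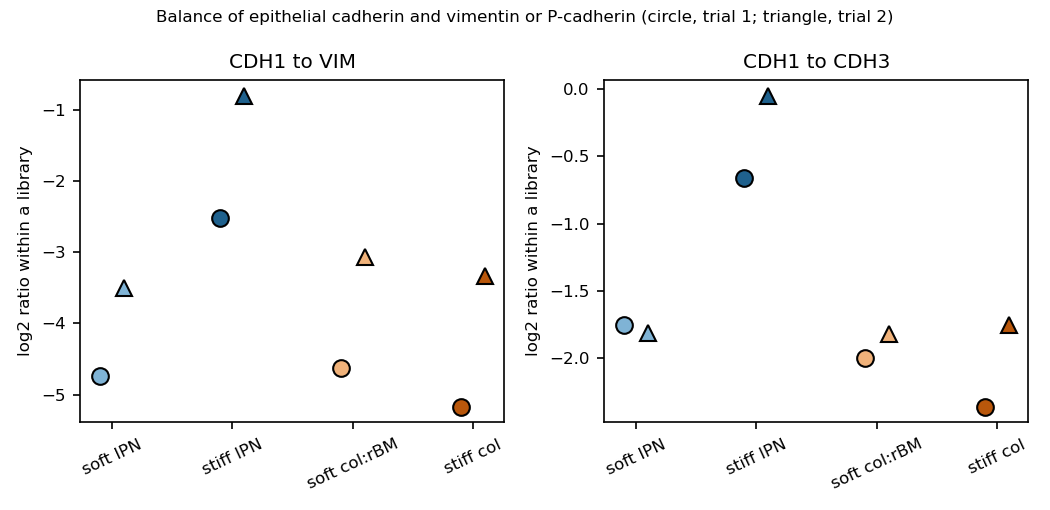
Log2 ratio of CDH1 to VIM reads (left) and of CDH1 to CDH3 reads (right) in each library, by gel, with a circle for the first and a triangle for the second replicate. Stiff IPN has the highest values in both panels, -2.52 and -0.80 on the left and -0.66 and -0.05 on the right.

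Soft and stiff IPN share rBM and alginate but differ in calcium as well as stiffness, and these cannot be told apart. CDH1 was 1.88-fold higher in stiff IPN (log2 fold change 0.91 ± 0.25, SE), and higher in both trials, by 0.78 and 1.04. VIM was 2.92-fold lower (-1.54 ± 0.72, and -1.43 and -1.65 in the trials). ZEB2 was 2.62-fold lower (-1.39 ± 0.48), AXL 2.35-fold lower (-1.23 ± 0.47) and CDH3 1.43-fold lower (-0.52 ± 0.21), in both trials each. SNAI2 (-0.56 ± 0.38) and TWIST1 (-0.61 ± 0.86) were lower in both trials with overlapping libraries. ZEB1 (0.55 ± 0.49) and CDH2 (-0.12 ± 0.37) went opposite ways in the trials. With 1 library left out, the log2 fold change ran from -2.15 to -0.94 for VIM, -2.23 to -0.54 for ZEB2, -1.93 to -0.54 for AXL and -1.11 to -0.015 for SNAI2, each smallest without stiff IPN replicate 2, and from 0.66 to 1.16 for CDH1. A log2 fold change is here the difference in log2(normalised read count + 1), n = 2 libraries per gel, which understates the change of genes with low counts.

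None of the 9 members tested passed the threshold, an adjusted p under 0.05 by limma over all genes tested, and neither did any other gene (0 of 13369, 0%). The paper, which used DESeq2 on read counts, did call genes between these gels and lists AXL as lower in stiff IPN. By limma at an unadjusted p under 0.05, 4 members were found, CDH1 (0.00757), ZEB2 (0.0216), AXL (0.0312) and CDH3 (0.041), against 1245 genes (9.31%). For 5 of the 10 members the 2 gels had no overlap of libraries, against 41.9% of genes tested. With the trial entered as a replicate block, the fit called 511 genes (3.82%), and of the 9 members CDH1 rose (adjusted p = 0.0376) and VIM fell (adjusted p = 0.0131). The next were AXL (0.0581), ZEB2 (0.0849), CDH3 (0.118) and SNAI2 (0.126), which did not pass. Over 17 settings with the block the adjusted p ranged from 0.00968 to 0.418 for CDH1, which passed in 15, and from 0.00341 to 0.234 for VIM, which passed in 16. CDH1 did not pass without soft IPN replicate 1 (0.106), nor did either gene without soft IPN replicate 2 (CDH1 0.418 and VIM 0.234). More members passed without stiff IPN replicate 1, a fit for which the share of all genes is not given here.

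Stiff col and stiff IPN are both stiff, but the cells meet dense col-1 in one and rBM in the other. CDH1 was 3.09-fold lower in stiff col (log2 fold change -1.63 ± 0.25), by -1.63 and -1.62 in the trials. ZEB2 was 2.92-fold higher (1.54 ± 0.48), SNAI2 2.19-fold higher (1.13 ± 0.38), AXL 2.09-fold higher (1.06 ± 0.47) and VIM 1.95-fold higher (0.97 ± 0.72), each in both trials. TWIST1 (0.50 ± 0.86) and CDH2 (-0.22 ± 0.37) overlapped between the gels, and CDH3 differed little (0.08 ± 0.21). ZEB1 (0.22 ± 0.49) went opposite ways in the trials. With 1 library left out, the log2 fold change ran from 0.70 to 2.39 for ZEB2, 0.58 to 1.68 for SNAI2, 0.37 to 1.76 for AXL, 0.30 to 1.63 for VIM and -1.88 to -1.37 for CDH1. It was smallest for ZEB2, SNAI2 and AXL without stiff IPN replicate 2, and for VIM and CDH1 without stiff col replicate 1. This comparison uses the same stiff IPN libraries as that with soft IPN, so the pair are not independent.

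Without the block 0 of the 9 members and 0 of 13369 genes (0%) passed. An unadjusted p under 0.05 was found for CDH1 (0.000267), ZEB2 (0.0134) and SNAI2 (0.0191), against 838 genes (6.27%), and these 3 of the 10 members were also those whose libraries did not overlap, against 30.9% of genes tested. With the block 330 genes were called (2.47%), and of the 9 members CDH1 fell (adjusted p = 0.00781) while SNAI2 (0.0279) and VIM (0.0394) rose. ZEB2 (0.0886) and AXL (0.106) did not pass. Over the 17 settings with the block, the adjusted p ranged from 0.00133 to 0.0615 for CDH1, from 0.00107 to 0.15 for SNAI2 and from 0.0214 to 0.317 for VIM. CDH1 passed in 16 of them and did not without stiff col replicate 1 (0.0615), while SNAI2 and VIM passed in 13 each. Both missed the threshold without soft IPN replicate 1 (SNAI2 0.0752, VIM 0.0596), soft IPN replicate 2 (SNAI2 0.0748, VIM 0.0595), stiff col replicate 1 (SNAI2 0.149, VIM 0.317) and stiff col replicate 2 (SNAI2 0.15, VIM 0.174). More members passed without stiff IPN replicate 1, and the share of all genes in that fit is not given here.

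**Figure D3:**
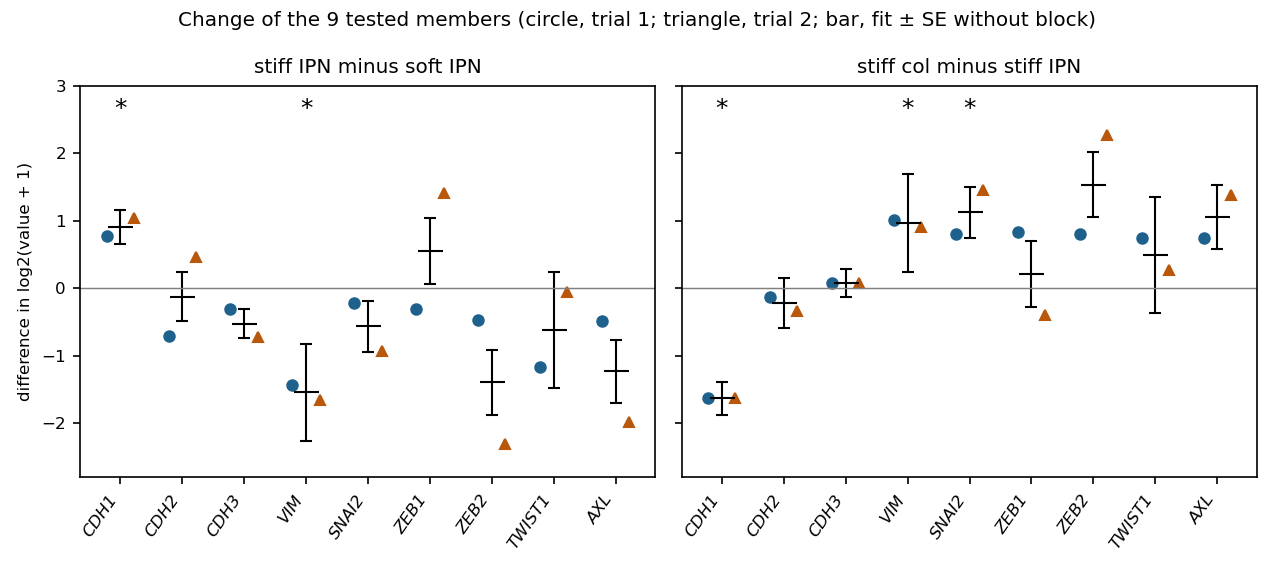
Difference in log2(normalised read count + 1) for the 9 members tested, in stiff IPN minus soft IPN (left) and stiff col minus stiff IPN (right). Circles and triangles are trials 1 and 2, bars are the fit without the block ± SE, and an asterisk marks an adjusted p under 0.05 with the block. CDH1 is up by 0.78 and 1.04 on the left and down by -1.63 and -1.62 on the right.

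Within the collagen gels, soft col:rBM and stiff col differ in col-1 and rBM as well as stiffness. CDH1 was lower in stiff col (stiff col minus soft col:rBM -0.57 ± 0.25, and -0.87 and -0.27 in the trials), and so was CDH3 (-0.42 ± 0.21, and -0.51 and -0.34). The 7 other members tested were between -0.16 (VIM) and 0.33 (CDH2), with an SE of up to 0.86 (TWIST1), so larger differences could go unseen. Of the 9, 0 passed without the block and 0 with it, as for all genes (0% and 0%), and 0 had an unadjusted p under 0.05 without the block, against 140 genes (1.05%).

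Between the soft gels, 0 of the 9 members passed, without the block (0% of genes) or with it (3 genes, 0.0224%), and 0 had an unadjusted p under 0.05, against 190 genes (1.42%). CDH2 had the largest difference, 1.60-fold lower in soft col:rBM (-0.67 ± 0.37, and -0.80 and -0.55 in the trials). Across the 4 gels at once, limma's F test called 0 members and 0 genes (0%) without the block, with an unadjusted p under 0.05 for CDH1 (0.00181) and ZEB2 (0.0317), against 702 genes (5.25%). With the block it called CDH1 (adjusted p = 0.022) and VIM (adjusted p = 0.0271) among 211 genes (1.58%), and neither passed without soft IPN replicate 1 or soft IPN replicate 2, where 0 members did. It called more members without stiff IPN replicate 1 and fewer without stiff col replicate 1. The share of all genes is not given for these fits.

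To compare the 2 gel systems, the stiff minus soft log2 fold change in the IPNs was subtracted from that in the collagen gels. Other gel components change with stiffness within each system, so an effect of stiffness alone cannot be told apart. This subtraction, called the difference of stiffness effects, gave -1.48 ± 0.36 (log2) for CDH1. CDH1 was higher in the stiff gel in both IPN trials and lower in it in both collagen trials. The difference was 1.38 ± 1.01 for VIM, 1.30 ± 0.68 for ZEB2 and 1.21 ± 0.66 for AXL. Of the 9 members, 0 passed without the block (0% of genes) and 0 with it (2 genes, 0.015%), where CDH1 had an adjusted p of 0.147 and VIM of 0.176. An unadjusted p under 0.05 without the block was found for CDH1 (0.00369), against 278 genes (2.08%).

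Several mesenchymal members also differed between the replicate numbers. In replicate 2, taken as trial 2, TWIST1 was 2.95-fold lower (log2 difference -1.56 ± 0.18, adjusted p = 0.00246) and VIM 2.46-fold lower (-1.30 ± 0.13, adjusted p = 0.00178), and SNAI2 (-0.60 ± 0.14, adjusted p = 0.0167) and AXL (-0.65 ± 0.21, adjusted p = 0.0495) were lower as well. TWIST1, VIM and SNAI2 were lower in all 4 gels and AXL in 3 of them. These 4 of the 9 members were called lower in replicate 2 and 0 higher, while 3619 of all genes were called (27.1%), 1926 lower (14.4%) and 1693 higher (12.7%). CDH1 differed by 0.29 ± 0.12 (adjusted p = 0.118). With any 1 library of soft IPN, soft col:rBM or stiff col left out, fewer members passed, and as many with a stiff IPN library left out. The share of all genes is not given for these fits.

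Over the 8 libraries, the log2 values of AXL and ZEB2 (Pearson's r = 0.93), SNAI2 and ZEB2 (0.89), AXL and VIM (0.87), AXL and SNAI2 (0.86), and TWIST1 and VIM (0.86) moved together most among the members, and those of CDH1 and SNAI2 (-0.88) and CDH1 and ZEB2 (-0.84) moved apart most. These describe 8 points that share gels and trials. Among all genes tested, those most like VIM were GLTSCR2 (Pearson's r = 0.995, Spearman's rho = 0.976), HAUS4 (0.992, 0.976) and P4HA1 (0.992, 0.976), the last a subunit of the enzyme that hydroxylates collagen prolines. Those most like CDH1 were LGALS9 (0.988, 0.952), ANKRD22 (0.985, 0.994) and SPRR2D (0.981, 0.85), of which LGALS9 and ANKRD22 reached no more than 18 and 59 normalised reads. Those most like CDH2 were ARMC12 (0.924, 0.833), GULP1 (0.909, 0.802) and LOC101926911 (0.898, 0.847), all of low counts.

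The genes around the members were described through 10 lists from general knowledge. They were chosen with earlier results of these data known, so they give no independent support to the differences of the members. The lists are read with the block, an alternative to the main fit, as 0 of their 97 entries tested passed without it. In stiff IPN against soft IPN, 12 of 97 passed, with a background of 226 genes higher (1.69%) and 285 lower (2.13%), and in stiff col against stiff IPN 26 passed, with 134 higher (1%) and 196 lower (1.47%). In stiff col against soft col:rBM, soft col:rBM against soft IPN and the difference of stiffness effects, 0 passed.

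Epithelial genes that are repressed in EMT were mostly higher in stiff IPN and lower in stiff col. Of 18 tested, 3 rose and 0 fell from soft to stiff IPN, with a median log2 fold change of 0.44 against -0.01 for all genes. From stiff IPN to stiff col 8 fell and 0 rose, and all 18 were lower, with a median of -1.06 against 0 for all genes. The tight junction gene OCLN was at 106 and 37 in soft IPN, 273 and 529 in stiff IPN, 127 and 41 in soft col:rBM, and 53 and 26 in stiff col. OCLN (5.98-fold higher, adjusted p = 0.0479) and MAL2, an apical transport gene (3.22-fold higher, adjusted p = 0.0273), were among the rises in stiff IPN. OCLN (9.98-fold), MAL2 (5.42-fold) and the polarity gene CRB3 (4.11-fold) fell in stiff col. OCLN was 1.42 higher (log2) in stiff than in soft IPN without stiff IPN replicate 2, against 2.58 with it, and -2.16 in stiff col against stiff IPN, where it was -3.32 with it.

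Guardians of the epithelial state, transcription and splicing factors that oppose EMT, had a similar direction. Of 10 tested, 1 rose and 0 fell in stiff IPN (median 0.71), and 0 rose and 4 fell in stiff col against stiff IPN (median -1.35). GRHL1, a grainyhead factor, was 2.78-fold higher in stiff IPN (adjusted p = 0.0449) and 3.55-fold lower in stiff col (adjusted p = 0.0284). ELF3, an epithelial ETS factor, was at 240 and 64 in soft IPN, 544 and 712 in stiff IPN, 53 and 8 in soft col:rBM, and 71 and 22 in stiff col, and was 15.3-fold lower in stiff col (adjusted p = 0.0213 against stiff IPN). The log2 difference of ELF3 was -2.72 without stiff IPN replicate 2, against -3.94. GRHL3 (5.2-fold, adjusted p = 0.0153) and ESRP2, an epithelial splicing regulator (2.70-fold, adjusted p = 0.014), were lower as well.

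Mesenchymal genes raised in EMT went the other way. Of 17 tested, 1 rose and 6 fell in stiff IPN (median -0.96), and 9 rose and 0 fell in stiff col against stiff IPN (median 1.34). TGFBI, a secreted matrix protein, was at 59566 and 59917 in soft IPN, 18760 and 15302 in stiff IPN, 62653 and 52236 in soft col:rBM, and 45896 and 43472 in stiff col, and fell 3.53-fold in stiff IPN (adjusted p = 0.00669). LOX, which crosslinks collagen (9.90-fold, adjusted p = 0.0316), and ITGA5, a subunit of the fibronectin receptor (3.04-fold, adjusted p = 0.0373), fell as well. FN1, fibronectin, was at 11610 and 9691 in soft IPN, 7577 and 3936 in stiff IPN, 28969 and 11569 in soft col:rBM, and 57569 and 23828 in stiff col, 6.78-fold higher than in stiff IPN (adjusted p = 0.00527). LOX (8.38-fold), SPARC (4.5-fold) and MMP2 (4.12-fold) rose in the same comparison. The exception was TAGLN, an actin-binding gene of contractile cells, which was 16.6-fold higher in stiff IPN (adjusted p = 0.0344). Its libraries were at 16 and 64 in soft IPN and 111 and 2728 in stiff IPN, and without stiff IPN replicate 2 its log2 difference was 2.49 against 4.06. The log2 difference of LOX was -2.23 in stiff IPN without soft IPN replicate 2 against -3.31, and 2.08 in stiff col without stiff IPN replicate 2 against 3.07. That of ITGA5 was -0.99 without soft IPN replicate 2 against -1.61.

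Of the intermediate filaments beside VIM, 9 were tested. KRT17, a keratin of basal cells, was at 5552 and 18767 in soft IPN, 19555 and 71907 in stiff IPN, 2883 and 7944 in soft col:rBM, and 3049 and 13097 in stiff col. It was the single rise in stiff IPN (3.67-fold, adjusted p = 0.00669), and fell in stiff col against stiff IPN (5.93-fold, adjusted p = 0.00302) together with KRT14 (2.87-fold, adjusted p = 0.0328). In these comparisons with stiff IPN, KRT17 had the direction opposite to that of VIM, while both were lower in soft col:rBM than in soft IPN in both replicates. The log2 difference of KRT14 was -0.99 without stiff IPN replicate 1 against -1.52. The list as a whole had a median of -0.28 in stiff IPN and -0.18 in stiff col against stiff IPN.

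**Figure D4:**
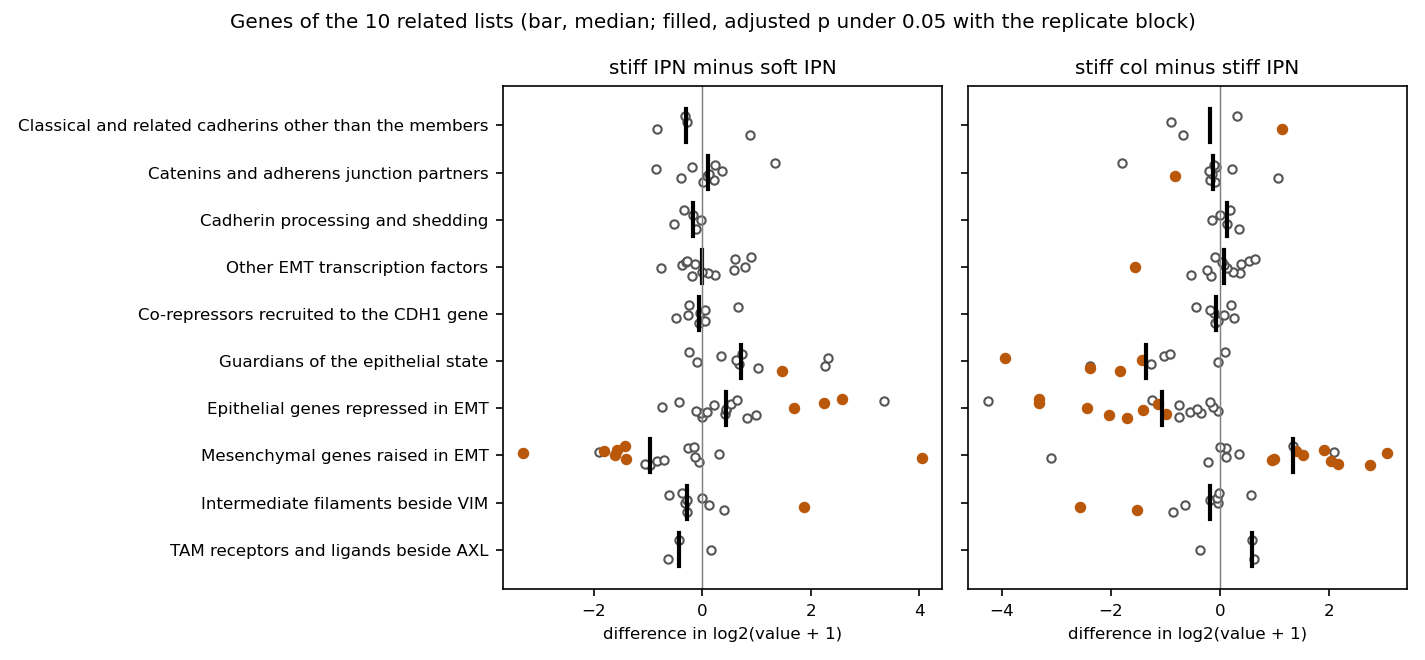
Difference in log2(normalised read count + 1) of each tested gene of the 10 lists in stiff IPN minus soft IPN (left) and stiff col minus stiff IPN (right). Bars are list medians and filled points have an adjusted p under 0.05 with the block. Epithelial genes have a median of 0.44 on the left and -1.06 on the right, and mesenchymal genes -0.96 and 1.34.

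Of 10 catenins and junction partners tested, 0 passed in stiff IPN (median 0.10) and 1 fell in stiff col against stiff IPN (median -0.12), JUP, which encodes plakoglobin (1.78-fold, adjusted p = 0.0428). ARVCF (1.34) and PVRL1 (-0.86) had the largest log2 differences in stiff IPN and did not pass. Of 4 other cadherins tested out of 12, CDH13, a cadherin without a cytoplasmic domain, rose in stiff col against stiff IPN (2.20-fold, adjusted p = 0.0318). CDH13 (-0.84) and CDH4 (0.88) did not pass in stiff IPN. Of 5 genes of cadherin processing, 0 passed in either comparison, with ADAM15 at -0.52 and FURIN at -0.33 in stiff IPN.

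Among 13 other EMT transcription factors tested, 0 passed in stiff IPN, where ID3 (0.90) and SOX9 (0.78) had the largest log2 differences, and 1 fell in stiff col against stiff IPN, SOX9 (2.93-fold, adjusted p = 0.0455). Of 8 co-repressors recruited to the CDH1 gene, 0 passed in either comparison, with EZH2 at 0.66 and SIN3A at -0.49 in stiff IPN. Of 3 genes tested among the receptors and ligands related to AXL, 0 passed, with TYRO3 at -0.63 and PROS1 at -0.43. With 1 library left out in turn, MAL2, FN1 and KRT17 passed every time in stiff col against stiff IPN, and each of the other calls of listed genes named here was lost at least once.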

How the data were processed

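Poly(A) libraries of 8 gels were prepared with an unstranded TruSeq kit and sequenced on 1 lane. The authors trimmed reads (Trim Galore 0.3.3), aligned them to hg19 (Bowtie2 in the methods, TopHat2 2.0.13 in the submitters' processing notes) and counted them per gene with HTSeq. The counting annotation is not given in the sources used here. The deposited values are a signal, which the authors obtained from counts through division by a factor for each library, and rounded, so that no count test was used. Reads per library were worked out from the steps in these values.

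Genes at 10 or more in at least 2 libraries (13369) were fitted as log2(value + 1) in R 4.3.3 by limma 3.58.1 with statmod 1.5.0, using a mean per gel, a variance trend and robust moderation. Within a comparison, the Benjamini-Hochberg adjustment was taken over every gene tested, and 0.05 was the threshold. Deviations of equal replicate numbers correlated in all 6 pairs of gels (r from 0.28 to 0.82), so a replicate block was an alternative. The numbers were taken as the study's independent trials, which the labels do not state. Members and lists were chosen with earlier results of these data known. From each list the called genes with the largest differences were named, up to 4 per comparison, or the 2 with the largest differences in stiff IPN against soft IPN where none was called there. Some genes that this rule names are not reported here. Genes like a member were the 3 with the highest Pearson's r to VIM, CDH1 and CDH2. Positions are from GENCODE 44 lifted to hg19. Rescaling, pseudocounts, filters, moderation, the libraries in the fit and leaving out libraries were varied.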

Additional observations from a re-analysis of the deposited data

Results flagged for a closer look

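Differences between the stiff and the soft gel went opposite ways in the IPNs and the collagen gels for 3 of the 9 members tested. They did so in both trials of each system, as for 1510 of 13369 genes (11.3%). In trials 1 and 2, CDH1 differed by 0.78 and 1.04 in the IPNs and by -0.87 and -0.27 in the collagen gels. SNAI2 differed by -0.21 and -0.92 in the IPNs and by 0.14 and 0.17 in the collagen gels. Its log2 fold change in the collagen gels, 0.16 ± 0.38 (SE), ran from -0.077 to 0.39 with 1 library left out. TWIST1 differed by -1.16 and -0.06 in the IPNs and by 0.02 and 0.21 in the collagen gels, so that its pattern rests on differences near 0. The difference, collagen gels minus IPNs, was -1.48 (log2) for CDH1, 0.72 for SNAI2 and 0.72 for TWIST1. In limma's test of the difference none of the 3 passed, with an adjusted p of 1 for each without the block, and 0.147 for CDH1, 0.432 for SNAI2 and 0.562 for TWIST1 with it.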

How the results depend on the processing

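Without the block, 0 members passed in any comparison or in the F test, whichever scaling, pseudocount, filter, moderation or library was varied. With the replicate block, 2 members passed in stiff IPN minus soft IPN, 3 in stiff col minus stiff IPN and 2 in the F test, and the block changed no other count. Combinations of the block with other settings were added after the data were seen. With the block and 1 library left out, the number of members passing was between 0 and 6 in stiff IPN minus soft IPN, between 0 and 5 in stiff col minus stiff IPN, between 0 and 5 for the difference of stiffness effects and between 0 and 5 in the F test. With the block and only the libraries of the gels compared, 1 member, CDH3 (adjusted p = 0.0022), passed in stiff col minus soft col:rBM. The share of all genes is not given for any of these fits. The cause of these changes was not tested.

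Log2 fold changes of some members reversed with 1 library left out, and some of these passed with the block in such a fit. Without the block they did not pass in any fit, but neither did those of any other member. In stiff IPN minus soft IPN they ran from -0.46 to 0.22 for CDH2, -0.038 to 1.14 for ZEB1 and -1.66 to 0.44 for TWIST1. In stiff col minus soft col:rBM they ran from -0.99 to 0.66 for VIM, -0.077 to 0.39 for SNAI2, -0.21 to 0.50 for ZEB1, -0.20 to 0.02 for ZEB2, -0.72 to 0.95 for TWIST1 and -0.40 to 0.36 for AXL. In stiff col minus stiff IPN they ran from -0.46 to 0.021 for CDH2, -0.13 to 0.57 for ZEB1 and -0.23 to 1.24 for TWIST1. In soft col:rBM minus soft IPN they ran from -0.17 to 0.13 for CDH3, -1.24 to 0.41 for VIM, -1.27 to 0.83 for TWIST1 and -0.44 to 0.14 for AXL. For the difference of stiffness effects they ran from -0.059 to 0.24 for CDH3, -1.0 to 0.18 for ZEB1 and -0.33 to 1.78 for TWIST1. With 2 libraries per gel, a lone library is assumed to vary like the other gels, and SNAI1 lies at the limit that the depth allows.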
